A study of Homo sapiens with 12 samples.

Results

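The 4 NOTCH receptors (NOTCH1, NOTCH2, NOTCH3 and NOTCH4) and 6 of their ligands (JAG1, JAG2, DLL1, DLL3, DLL4 and DLK1) were examined in 2 pancreatic neuroendocrine tumor (pNET) cell lines. The members were picked out by gene symbol, and all 10 were found among the 28008 rows of the count table of each line. QGP-1 and BON-1 are established human pNET lines that grow in culture. Both carried a tetracycline-inducible hairpin against MUC1 (tet-MUC1shRNA), in the control cells as well as in the treated cells. Each line was grown with vehicle (0.1% DMSO) or with 500 ng/ml doxycycline (DOX), which switches the hairpin on, for 7 days. The 12 libraries made up 4 groups of 3. The hairpin vector had been brought in by transduction with selection in puromycin, and RNA came from triplicate cultures, so p-values measure the spread between cultures of a line. No library with DOX and a non-silencing hairpin was analysed here, so that the effect of DOX and that of MUC1 silencing cannot be told apart.

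NOTCH receptors are single-pass membrane proteins that are cut by furin during export and sit at the cell surface. When a ligand of the Jagged or Delta-like family on a neighboring cell binds and is pulled in by endocytosis, ADAM proteases and then gamma-secretase cut the receptor, and its intracellular domain enters the nucleus, joins RBPJ and Mastermind coactivators and switches on genes of the HES and HEY families. In the developing pancreas, this signaling between neighbors is known for holding back endocrine differentiation through repression of NEUROG3.

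The members were located (GRCh38, GENCODE v44 annotation). NOTCH1 spans 136494433 to 136546048 of chromosome 9, NOTCH2 119911553 to 120100779 of chromosome 1, NOTCH3 15159038 to 15200995 of chromosome 19 and NOTCH4 32194843 to 32224067 of chromosome 6, all on the minus strand. JAG1 spans 10637684 to 10673999 of chromosome 20, JAG2 105140982 to 105168824 of chromosome 14 and DLL1 170282206 to 170306565 of chromosome 6, also on the minus strand. DLL3 spans 39498895 to 39508481 of chromosome 19, DLL4 40929340 to 40939073 of chromosome 15 and DLK1 100725705 to 100738224 of chromosome 14, on the plus strand. DLL3, DLL4 and DLK1 overlap no other annotated gene. NOTCH4 overlaps GPSM3 on the same strand and DLL1 overlaps FAM120B on the opposite strand, and in these places reads may be split or shared between genes, since the way reads were counted by strand is not given in the sources used here.

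JAG1 and DLL4 are the ligands among the 10 members whose mRNA rose with DOX. JAG1 rose in both lines, with a call in QGP-1 that depended on single libraries, and DLL4 rose in QGP-1 cells. The 250 bases before their RefSeq transcription starts (GRCh38.p14) are shown for this reason, read 5′ to 3′ on the strand of the gene, with every match to the GC box GGGCGG, on either strand, in capitals. The JAG1 window is chr20:10674000-10674249 on the minus strand and the DLL4 window chr15:40929090-40929339 on the plus strand.
JAG1: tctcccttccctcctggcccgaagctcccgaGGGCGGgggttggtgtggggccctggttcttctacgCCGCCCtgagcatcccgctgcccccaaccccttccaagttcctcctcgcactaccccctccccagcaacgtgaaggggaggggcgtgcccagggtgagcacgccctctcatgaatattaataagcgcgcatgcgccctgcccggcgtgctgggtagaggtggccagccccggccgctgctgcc
DLL4: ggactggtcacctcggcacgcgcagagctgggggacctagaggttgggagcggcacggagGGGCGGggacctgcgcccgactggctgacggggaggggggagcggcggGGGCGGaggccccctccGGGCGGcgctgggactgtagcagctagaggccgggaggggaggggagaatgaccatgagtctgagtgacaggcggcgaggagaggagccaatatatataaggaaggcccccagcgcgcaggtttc
The JAG1 window held 2 GC boxes, 219 and 183 bases before the start, and the DLL4 window held 3, at 190, 142 and 125 bases. A GC box lay in 42.6% of the 35116 promoters of the table over the same length. Promoter windows were found for 7 of the 10 members, and each of these 7 held a GC box. None of the 7 held the RBPJ motif GTGGGAA (5.43% of all promoters), the E-box CACGTG (6.34%) or the TATA box TATAAA (10.7%) on either strand. GC content was 68.4% for JAG1 and 70.0% for DLL4, against a median of 58.0% over all promoters. A match is a description of letters and not a binding site.

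The QGP-1 libraries summed to 38224144 to 50525926 counts each, and those of BON-1 to between 15981954 and 28484324. MUC1, the target of the hairpin, had 274, 251 and 281 counts with vehicle and 34, 41 and 32 with DOX in QGP-1 cells, and 580, 467 and 281 against 23, 51 and 78 in BON-1 cells. Its log2 fold change was -2.91 in QGP-1 and -2.79 in BON-1 (edgeR adjusted p = 8.24e-07 and 6.51e-11). Both lines held the epithelial markers EPCAM, KRT8, KRT18 and CDH1 above 1 CPM (counts scaled to a common library size), and 11 of 11 neuroendocrine markers in QGP-1 and 10 of 11 in BON-1, where NCAM1 was at 0 to 0.111 CPM and CHGA stood at 6535 to 9328 CPM with vehicle and at 2705 to 3129.7 CPM with DOX. With DOX, 1 of the 11 neuroendocrine markers tested fell and 3 rose in QGP-1, beside 17.7% and 17.3% of all genes tested. In BON-1, 4 of 10 fell, CHGA among them, and 2 rose (SCG2 and SCG3), beside 18.3% and 17.0%. Of the endothelial markers, CDH5, TEK, VWF and PECAM1 stayed below 1 CPM in every library, and KDR was at 31.3 to 40.3 CPM in BON-1 and below 1 CPM in QGP-1. Leukocyte markers (2 of 5 over 1 CPM in BON-1, CD68 and LYZ) summed to 26.2 to 28.2 CPM with vehicle and 51.7 to 57.4 CPM with DOX in BON-1, and to 10.5 to 12.9 against 16.9 to 21.0 CPM in QGP-1, while PTPRC, CD3E and CD79A, which define leukocytes, were at 0 to 0.257 CPM. Fibroblast markers (1 of 5 over 1 CPM) summed to 1.81 to 3.59 CPM with vehicle and 1.14 to 1.32 CPM with DOX in QGP-1, and to 4.83 to 6.43 against 10.2 to 11.6 CPM in BON-1, where LUM made up nearly all of it and COL1A2, DCN and PDGFRB were at 0 to 0.208 CPM. The small noncoding RNAs RN7SK, RN7SL1 and RN7SL2 made up 5.37% to 6.38% of the counts with vehicle and 3.30% to 4.53% with DOX in QGP-1 cells, and 1.35% to 2.39% against 1.55% to 3.77% in BON-1 cells. The part of these markers and RNAs in the results was not tested.

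Levels are compared between genes only per length, as the deposited TPM (counts divided by gene length and scaled to 1 common total), in which these 3 RNAs take 50.9% to 80.3% of the total and so lower all other values. JAG1, a Jagged ligand that binds NOTCH receptors on the next cell, had the highest TPM of the 10 members in each of the 4 groups. It stood at 32.3 ± 3.77 TPM (mean ± SD, n = 3 libraries here and below) in QGP-1 with vehicle and at 71.2 ± 17.1 TPM in BON-1 with vehicle. JAG2, DLL1, DLL3 and DLL4 followed in each group, and the receptors and DLK1 came after them. In bulk RNA, fewer cells that express a gene and less RNA per cell cannot be told apart. In QGP-1 with vehicle the order after JAG1 was DLL3 at 4.30 ± 0.892, JAG2 at 3.72 ± 0.548, DLL4 at 1.47 ± 0.285 and DLL1 at 0.675 ± 0.0583 TPM. The receptor with the highest TPM there was NOTCH2 at 0.232 ± 0.0658, followed by NOTCH3 at 0.208 ± 0.0256, NOTCH1 at 0.0755 ± 0.0252 and NOTCH4 at 0.00494 ± 0.00110.

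In BON-1 with vehicle DLL4 took the next place after JAG1, at 25.7 ± 5.25 TPM, before DLL3 at 13.8 ± 2.26, JAG2 at 10.0 ± 2.32 and DLL1 at 3.02 ± 0.490 TPM. NOTCH2 stood at 0.792 ± 0.254 and NOTCH1 at 0.726 ± 0.144 TPM, and the libraries of these receptors overlapped. Neighbors in the order whose libraries overlapped were DLL3 and JAG2 in both lines with vehicle, NOTCH2 and NOTCH3 in QGP-1, and NOTCH3 and DLK1 in BON-1. Within a library, DLL3 stood above JAG2 in 3 of 3 libraries of each line with vehicle, NOTCH2 above NOTCH3 in 2 of 3 in QGP-1, and NOTCH3 above DLK1 and NOTCH2 above NOTCH1 in 2 of 3 in BON-1. The genes were measured in the same 3 libraries, for which an exact paired permutation test cannot go below p = 0.25, and no test is given. For NOTCH4 the length behind the deposited TPM was 3.68 times that of NOTCH2, whereas its annotated exons span 9748 bases against 16744, so its TPM is low by a factor of 6.32 beside the annotation. The same factor was 2.41 for DLL1 and 0.889 to 1.26 for the other members. By CPM per kilobase of annotated exon, NOTCH4 stood at 0.0613 ± 0.0129 in QGP-1 with vehicle, where NOTCH1 stood at 0.155 ± 0.0525.

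**Figure D1:**
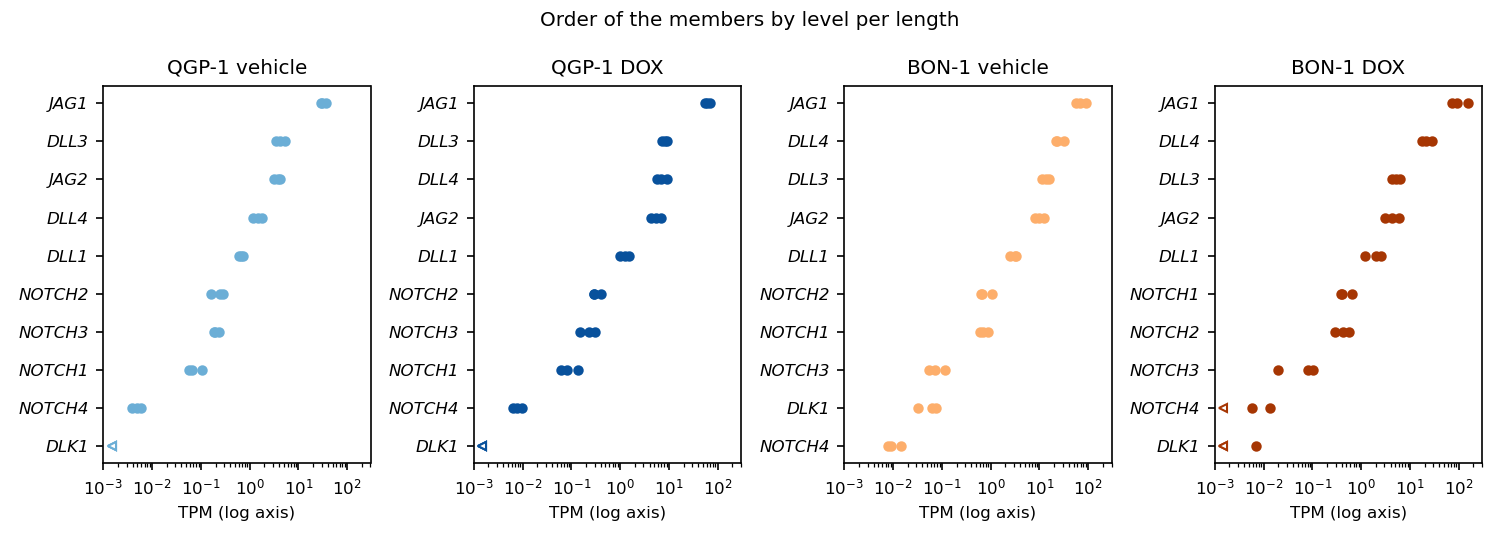
Deposited TPM (log axis) of the 10 members in each group, 1 point per library, ordered by group mean, with open triangles at the left edge for libraries listed at 0. JAG1 stood first in each group. DLL4 had rank 4 in QGP-1 with vehicle (1.47 TPM) and rank 3 with DOX (7.29 TPM), where its libraries overlapped those of DLL3 and JAG2. RN7SK, RN7SL1 and RN7SL2 took 78.8% to 80.3% of the QGP-1 total with vehicle and 71.2% to 75.4% with DOX. TPM values of the groups are therefore not to be read as a fold.

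The lines were compared with vehicle alone in a fit of all 12 libraries, on the scale of CPM set across both lines. Line, medium and table cannot be told apart, as each line was grown in its own medium and came in its own table. Of 9 members tested, 4 were higher and 2 lower in BON-1 than in QGP-1, where 37.5% of all genes tested were higher and 37.5% lower. DLL4, a ligand that endothelial tip cells use in sprouting vessels, was among those higher. Its levels were 14.9, 13.5 and 11.7 CPM in QGP-1 and 100.3, 91.1 and 78.3 CPM in BON-1. The groups did not overlap, and the log2 difference was 2.75 ± 0.13 (SE, adjusted p = 5.57e-16). NOTCH1, the receptor often mutated in T-cell leukemia, was at 1.59, 2.78 and 1.63 CPM in QGP-1 and at 7.59, 7.33 and 6.94 CPM in BON-1, a log2 difference of 1.87 ± 0.25 (adjusted p = 3.24e-07). NOTCH3, a receptor known from vascular smooth muscle, went the other way, from 5.003, 4.58 and 4.60 CPM in QGP-1 to 0.592, 0.517 and 1.01 CPM in BON-1. Its log2 difference was -2.77 ± 0.34 (adjusted p = 6.64e-08), again with no overlap.

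The remaining calls between the lines were smaller. DLL1, the ligand studied most in early neural and pancreatic progenitors, was higher in BON-1 by 0.77 ± 0.13 on the log2 scale (adjusted p = 7.91e-06). DLL3, also a Delta-like protein, was higher by 0.30 ± 0.12 (adjusted p = 0.0240). This call was lost without QGP-1 vehicle replicate 3, BON-1 vehicle replicate 1 or BON-1 vehicle replicate 3 (adjusted p up to 0.143). JAG1 was lower (log2 difference -0.26 ± 0.07, adjusted p = 0.00232), a direction that turned on the deposited TPM scale, where each table was scaled alone and JAG1 stood at 32.3 TPM in QGP-1 and 71.2 TPM in BON-1. NOTCH2 (0.39 ± 0.18, adjusted p = 0.0555), NOTCH4 (-0.17 ± 0.67, 0.822) and JAG2 (0.03 ± 0.10, 0.763) did not pass the test, although NOTCH2 did in 5 of the 12 fits that left out a library (adjusted p = 0.0251 to 0.308) and with library size scaling (0.0206), RLE factors (0.0452) or a filter of 10 counts in every library (0.0352). DLK1, a Delta-like protein without the domain that activates receptors, had 0 counts in all 6 QGP-1 libraries, which allows up to 0.0594 to 0.0785 CPM per library (3 counts), and 13, 6 and 3 counts in BON-1 with vehicle. It was below the filter on low counts and was not tested.

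With DOX, 3 of the 9 members tested in QGP-1 cells and 5 of the 8 tested in BON-1 cells changed. In QGP-1, DLL4 and JAG1 rose and NOTCH3 fell, whereas 17.3% of all 15089 genes tested rose and 17.7% fell. In BON-1, JAG1 rose and NOTCH2, JAG2, DLL1 and DLL3 fell, whereas 17.0% of all 14625 genes tested rose and 18.3% fell. The median log2 fold change of the members tested was -0.07 in QGP-1 and -0.29 in BON-1, beside -0.01 over all genes in each line. JAG1 was the only member called in both lines. On the TPM scale, log2(TPM + 1) in limma, the median of all genes moved by 0.59 in QGP-1 and by -0.31 in BON-1, and the calls there were 4 higher in QGP-1 and 2 lower in BON-1. TPM is made from the same counts, so the direction relative to that median is largely fixed by them. Relative to that median the 38 values of named genes that passed the filter on that scale kept their direction. No receptor was among them. The members were tested in each line on raw counts with edgeR's quasi-likelihood test, and adjusted p-values were taken over all genes tested in that line. Below, levels are CPM set within a line.

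**Figure D2:**
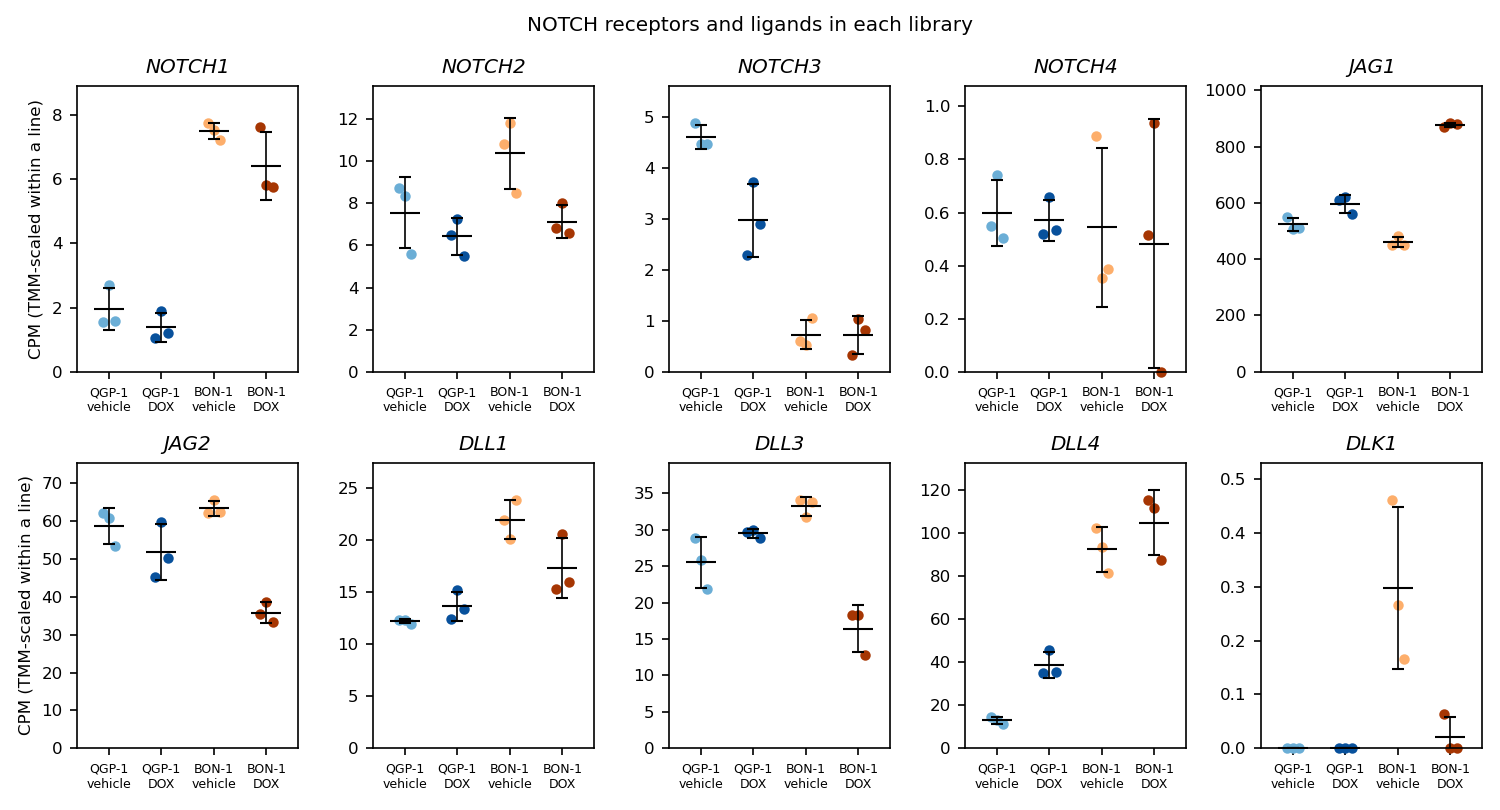
CPM of each member in each library, scaled within a line, with 1 point per library and the mean ± SD of 3 libraries in black. The vertical axes start at 0 and differ between genes, with JAG1 reaching 883 CPM in BON-1 with DOX and DLK1 reaching 0.462 CPM at most.

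Of the receptors, NOTCH2 is widely expressed, and the study followed it as a gene under the control of MUC1. There NOTCH2 and JAG1 were measured as protein by immunoblot, whereas the values here are mRNA. In BON-1 cells NOTCH2 was at 10.8, 11.8 and 8.50 CPM with vehicle and at 6.80, 8.01 and 6.57 CPM with DOX. All 3 DOX libraries lay below the 3 vehicle libraries, and NOTCH2 fell with a log2 fold change of -0.54 ± 0.18 (adjusted p = 0.0169). In QGP-1 cells NOTCH2 was at 8.73, 8.33 and 5.61 CPM with vehicle and at 6.49, 7.27 and 5.51 CPM with DOX. The groups overlapped there, and the log2 fold change of -0.23 ± 0.18 did not pass the test (adjusted p = 0.343). The difference between the lines in this response was -0.30 ± 0.26 (adjusted p = 0.471), so the lines were not shown to differ. The BON-1 call was lost without vehicle replicate 1 or without vehicle replicate 2 (adjusted p up to 0.0972).

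NOTCH2NL, the row of the partial copies of NOTCH2 on chromosome 1, shares sequence with the first exons of NOTCH2, and reads may be assigned to either. It was at 1.57, 2.89 and 1.85 CPM with vehicle and at 1.16, 1.37 and 0.929 CPM with DOX in QGP-1 cells, a log2 fold change of -0.87 ± 0.31 (adjusted p = 0.0417). This call was lost without vehicle replicate 2, vehicle replicate 3 or any single DOX library (adjusted p up to 0.239). NOTCH2NL was also not called with both lines in 1 edgeR fit (adjusted p = 0.101) or with limma on log2(TPM + 0.1) (0.759). In BON-1 it was below the filter, with 5 to 18 counts. Adding its counts to NOTCH2 gave -0.35 in QGP-1 (adjusted p = 0.118) and -0.52 in BON-1 (adjusted p = 0.0207).

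NOTCH3 fell in QGP-1 cells. It was at 4.88, 4.47 and 4.48 CPM with vehicle and at 2.30, 3.73 and 2.90 CPM with DOX, without overlap. The log2 fold change was -0.63 ± 0.20 (adjusted p = 0.0250). The call was lost without vehicle replicate 1, vehicle replicate 2, DOX replicate 1 or DOX replicate 3, with adjusted p up to 0.0756. It was also lost with both lines in 1 edgeR fit (adjusted p = 0.0848). In BON-1 cells NOTCH3 had only 17, 12 and 19 counts with vehicle and 5, 20 and 16 with DOX, and a change of the size seen in QGP-1 was not detectable at this depth (log2 fold change 0.04 ± 0.53, adjusted p = 0.957). The difference between the lines in the response of NOTCH3 was 0.71 ± 0.50 (adjusted p = 0.365), so the lines were not shown to differ.

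NOTCH1 did not pass the test in either line. It was at 1.55, 2.71 and 1.59 CPM with vehicle and at 1.06, 1.90 and 1.21 CPM with DOX in QGP-1 (log2 fold change -0.49 ± 0.32, adjusted p = 0.263). In BON-1 it was at 7.74, 7.54 and 7.22 CPM with vehicle and at 7.64, 5.82 and 5.75 CPM with DOX (-0.24 ± 0.19, adjusted p = 0.351). The groups overlapped in both lines. NOTCH4, a receptor known from endothelium, had 21 to 32 counts in the QGP-1 libraries and 0 to 25 in the BON-1 libraries. Its log2 fold change in QGP-1 was -0.07 ± 0.43 (adjusted p = 0.921), and it was below the filter in BON-1.

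**Figure D3:**
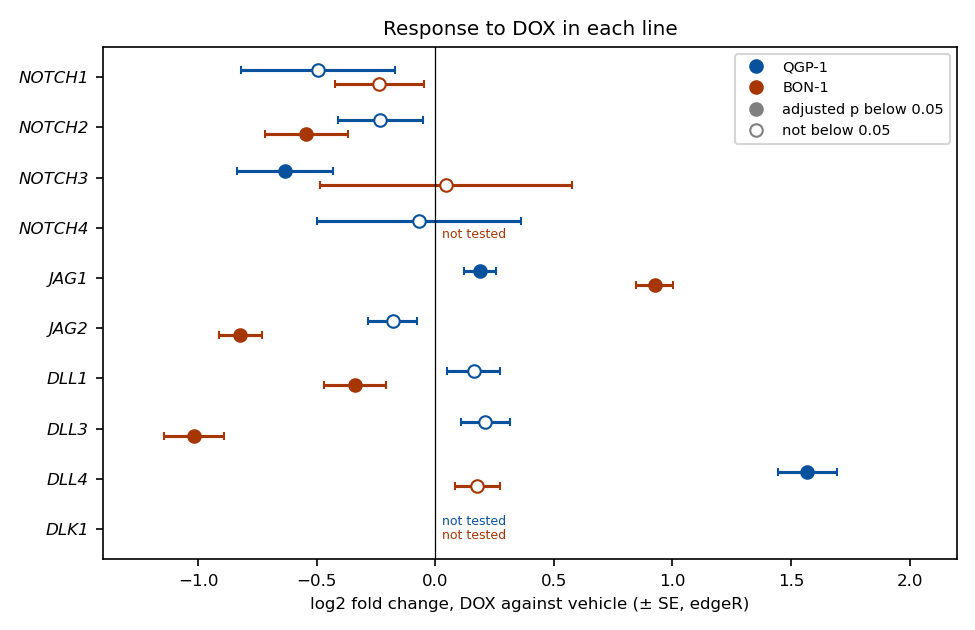
log2 fold change of each member with DOX against vehicle in QGP-1 (blue) and BON-1 (brown), with SE as bars, filled points for adjusted p below 0.05 and open points for the others. JAG1 lay at 0.19 and 0.93, DLL4 at 1.57 and 0.18, and DLL3 at 0.21 and -1.02 in QGP-1 and BON-1.

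Of the Jagged ligands, JAG1 rose in both lines. In BON-1 cells it was at 452, 482 and 450.4 CPM with vehicle and at 868, 883 and 879 CPM with DOX. Every DOX library lay above every vehicle library, and JAG1 rose 1.90-fold (log2 fold change 0.93 ± 0.08, adjusted p = 2.31e-10). In QGP-1 cells it was at 551, 507 and 512 CPM with vehicle and at 609.9, 621 and 560.4 CPM with DOX. The groups did not overlap, but the nearest libraries lay close, and the rise was 1.14-fold (0.19 ± 0.07, adjusted p = 0.0407). That call in QGP-1 did not hold without vehicle replicate 2, vehicle replicate 3, DOX replicate 1 or DOX replicate 2, with adjusted p up to 0.144. The response was larger in BON-1 than in QGP-1 by 0.75 ± 0.10 on the log2 scale (interaction, adjusted p = 1.50e-05). In this test 1 member was higher and 3 were lower of 9, beside 8.80% and 7.92% of all 16598 genes.

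JAG2, the other Jagged ligand, fell in BON-1 cells. It was at 62.2, 65.6 and 62.3 CPM with vehicle and at 35.6, 38.6 and 33.3 CPM with DOX, with no overlap. The log2 fold change was -0.82 ± 0.09 (adjusted p = 5.10e-08), so that the 2 Jagged genes moved in opposite directions in this line. In QGP-1 JAG2 was at 62.0, 60.6 and 53.3 CPM with vehicle and at 45.3, 59.8 and 50.2 CPM with DOX. These groups overlapped, and the log2 fold change of -0.18 ± 0.10 did not pass the test (adjusted p = 0.189). The interaction was -0.63 ± 0.14 (adjusted p = 0.00274). Summed over both genes, Jagged mRNA stood at 513 to 548 CPM with vehicle and at 903 to 921 CPM with DOX in BON-1, most of it JAG1.

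Of the Delta-like ligands, DLL4 rose in QGP-1 cells. It was at 14.5, 13.2 and 11.4 CPM with vehicle and at 35.1, 45.5 and 35.2 CPM with DOX. The lowest DOX library stood well above the highest vehicle library, and DLL4 rose 2.97-fold (log2 fold change 1.57 ± 0.12, adjusted p = 9.53e-07). It ranked 70 by p among the 15089 genes tested. In BON-1, DLL4 was at 102, 93.7 and 81.5 CPM with vehicle and at 115, 111 and 87.6 CPM with DOX. The groups overlapped, and the log2 fold change was 0.18 ± 0.10 (adjusted p = 0.155). The interaction was -1.38 ± 0.17 (adjusted p = 3.63e-06). The QGP-1 call held in all 6 fits that left out a library, with log2 fold changes of 1.44 to 1.65. The mean with DOX was 38.6 ± 5.95 CPM in QGP-1.

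DLL3 fell in BON-1 cells. It was at 34.1, 31.7 and 33.8 CPM with vehicle and at 18.3, 18.3 and 12.8 CPM with DOX, with no overlap. DLL3 was 2.03-fold lower with DOX (log2 fold change -1.02 ± 0.13, adjusted p = 3.16e-07). In QGP-1 it was at 28.8, 25.8 and 21.9 CPM with vehicle and at 29.7, 30.0 and 28.8 CPM with DOX. The DOX libraries lay just above the vehicle libraries, and the log2 fold change of 0.21 ± 0.10 did not pass the test (adjusted p = 0.129). The interaction was -1.22 ± 0.17 (adjusted p = 2.35e-05).

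DLL1 fell in BON-1 by a smaller amount. It was at 21.9, 20.1 and 23.9 CPM with vehicle and at 15.3, 20.6 and 16.0 CPM with DOX, and DOX replicate 2 lay within the vehicle range. The log2 fold change was -0.34 ± 0.13 (adjusted p = 0.0441). The call was lost with DESeq2 (adjusted p = 0.0776), with both lines in 1 edgeR fit (0.0610) and with limma on TPM (0.426 and 0.491). It was also lost without vehicle replicate 1, vehicle replicate 3, DOX replicate 1 or DOX replicate 3 (edgeR adjusted p up to 0.161). In QGP-1 it was at 12.3, 12.3 and 11.98 CPM with vehicle and at 12.4, 15.2 and 13.4 CPM with DOX (0.16 ± 0.11, adjusted p = 0.288). The interaction of -0.49 ± 0.18 missed the threshold (adjusted p = 0.0665), and passed it with DESeq2 (0.0443) and with library size scaling (0.0384). DLK1 in BON-1 had 13, 6 and 3 counts with vehicle and 1, 0 and 0 with DOX. The groups did not overlap, but the counts were too few for the filter, and no test was made.

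The other genes of the pathway were taken from lists by role, 64 genes in all. Of the 60 tested in QGP-1, 19 rose and 9 fell, beside 17.3% and 17.7% of all genes, with a median log2 fold change of 0.10. Of the 58 tested in BON-1, 6 rose and 13 fell, beside 17.0% and 18.3% of all genes, with a median of -0.04. The counts of the smaller lists below are to be read against the same shares. On the TPM scale 44 of 50 tested rose in QGP-1 with no gene lower, where the median of all genes moved by 0.59. The split between higher and lower genes thus differed with the scaling. The share of all genes called on the TPM scale is not given here, so that count is a description only. Of the 9 proteases and gamma-secretase subunits that cut the receptor, 3 rose in QGP-1, namely ADAM17, ADAM10, the main sheddase of NOTCH (0.47 ± 0.07, adjusted p = 0.000113), and APH1B, a gamma-secretase subunit (0.26 ± 0.08, 0.0172, lost without vehicle replicate 1, vehicle replicate 2 or DOX replicate 3, up to 0.0914). In BON-1, FURIN fell, and APH1B (0.61 ± 0.09, adjusted p = 8.09e-06) and NCSTN, the subunit that holds the substrate (0.48 ± 0.08, 1.28e-05) rose. Of the enzymes that add sugars to the EGF repeats of receptors, 1 rose and 1 fell of 8 in QGP-1, and 4 fell of 9 in BON-1 (EOGT, LFNG, MFNG and XXYLT1). EOGT, which adds N-acetylglucosamine, fell in both lines (-0.39 ± 0.09, adjusted p = 0.00523 in QGP-1, and -0.61 ± 0.09, 5.11e-06 in BON-1). GXYLT1, a xylosyltransferase, rose in QGP-1 (0.69 ± 0.09, adjusted p = 6.13e-05), and LFNG, the Lunatic fringe enzyme that shifts receptors between ligand families, fell in BON-1 (-0.37 ± 0.09, 0.00189).

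Of the 4 E3 ligases that drive ligand endocytosis, 1 rose and 1 fell in QGP-1 and 2 fell in BON-1. NEURL1B fell in both lines (-0.54 ± 0.13, adjusted p = 0.00423 in QGP-1, and -0.44 ± 0.10, 0.00106 in BON-1), MIB1 rose in QGP-1 (0.17 ± 0.06, 0.0434, lost without any of 5 single libraries) and NEURL1 fell in BON-1 (-0.49 ± 0.09, 0.000117). Of the genes that act on the turnover of receptors, 1 rose and 2 fell of 9 in QGP-1, and 1 fell of 8 in BON-1. FBXW7, the ubiquitin ligase subunit that sends the NOTCH intracellular domain to the proteasome, rose in QGP-1 (0.34 ± 0.07, adjusted p = 0.00142). NEDD4 fell there too. DTX1, a Deltex ligase, fell in QGP-1 (-0.61 ± 0.17, 0.0118, and 0.0509 without DOX replicate 2) and in BON-1, where it went from 34, 24 and 30 counts to 7, 2 and 0 (-2.90 ± 0.68, 0.00126). DTX3 in BON-1 was at 0.23 ± 0.10 and did not pass (0.0782).

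In the nuclear complex, 5 of 7 genes rose in QGP-1 and 2 of 7 in BON-1, and the others did not pass the test. By p, EP300, a histone acetyltransferase, came first in QGP-1 (0.50 ± 0.10, adjusted p = 0.00146) and MAML3, a Mastermind coactivator, next (0.34 ± 0.07, 0.00193), and the 3 others that rose were MAML1, MAML2 and CREBBP. MAML3 rose in BON-1 as well (0.29 ± 0.08, 0.00405), as did RBPJ, the DNA-binding partner (0.25 ± 0.08, 0.0124, lost without vehicle replicate 2, vehicle replicate 3 or DOX replicate 3, up to 0.0976). Of 10 corepressors, 5 rose and 2 fell in QGP-1 and 1 rose and 1 fell in BON-1. TLE2, a Groucho-type corepressor of HES proteins, fell in both lines (-0.80 ± 0.11, adjusted p = 0.000116 in QGP-1, and -2.30 ± 0.31, 1.55e-06 in BON-1), while TLE4 rose in BON-1 (0.96 ± 0.12, 1.90e-07) and SPEN, which binds RBPJ, rose in QGP-1 (0.46 ± 0.08, 0.000799). The others that rose in QGP-1 were NCOR1, KDM5A, TLE1 and TLE4, and HDAC1 fell.

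The HES and HEY family and NRARP formed the list of targets. They were taken by gene family, and a change in 1 of them is not a measure of the output of the pathway. Of the 8 tested in each line, 2 rose in QGP-1 and 2 fell in BON-1, and the others did not pass the test. HES1, the classic target, was at 44.3, 41.0 and 40.1 CPM with vehicle and at 54.2, 47.8 and 48.2 CPM with DOX in QGP-1 (0.26 ± 0.08, adjusted p = 0.0263). This call was lost without vehicle replicate 2, vehicle replicate 3 or DOX replicate 1 (up to 0.0947). HEY1 was at 4.93, 4.10 and 5.39 CPM against 7.77, 5.88 and 6.09 CPM (0.45 ± 0.17, 0.0498), a call that held only without vehicle replicate 3 among the 6 fits that left out a library (up to 0.183) and was lost with DESeq2 (0.0554). HES6, which counters HES1 in neuronal differentiation, fell in BON-1 from 12.7, 11.97 and 9.06 CPM to 8.28, 7.28 and 7.28 CPM (-0.57 ± 0.17, 0.00999, and 0.0628 without vehicle replicate 1). HES4 fell from 6.11, 5.28 and 6.17 CPM to 4.04, 3.64 and 3.56 CPM (-0.64 ± 0.22, 0.0207, lost without vehicle replicate 1 or vehicle replicate 3, up to 0.0632). Of the other ligands and modulators, 1 rose and 3 fell of 5 tested in QGP-1, and 1 rose and 2 fell of 3 in BON-1. DNER, a Delta-like protein of neurons, rose in QGP-1 (0.90 ± 0.07, adjusted p = 1.08e-06). CNTN1, a neural adhesion molecule, fell in QGP-1 (-0.55 ± 0.07, 7.04e-05) and rose in BON-1 (0.90 ± 0.13, 4.03e-06), and the difference between the lines was 1.45 ± 0.15 (2.33e-07). MFAP2, a microfibril protein, fell in BON-1 (-3.26 ± 0.72, 0.000703), where it had 40, 18 and 19 counts with vehicle and 0, 5 and 1 with DOX, and in QGP-1. EGFL7 fell in both lines. Folds of genes with so few counts depend on the prior count of the fit.

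**Figure D4:**
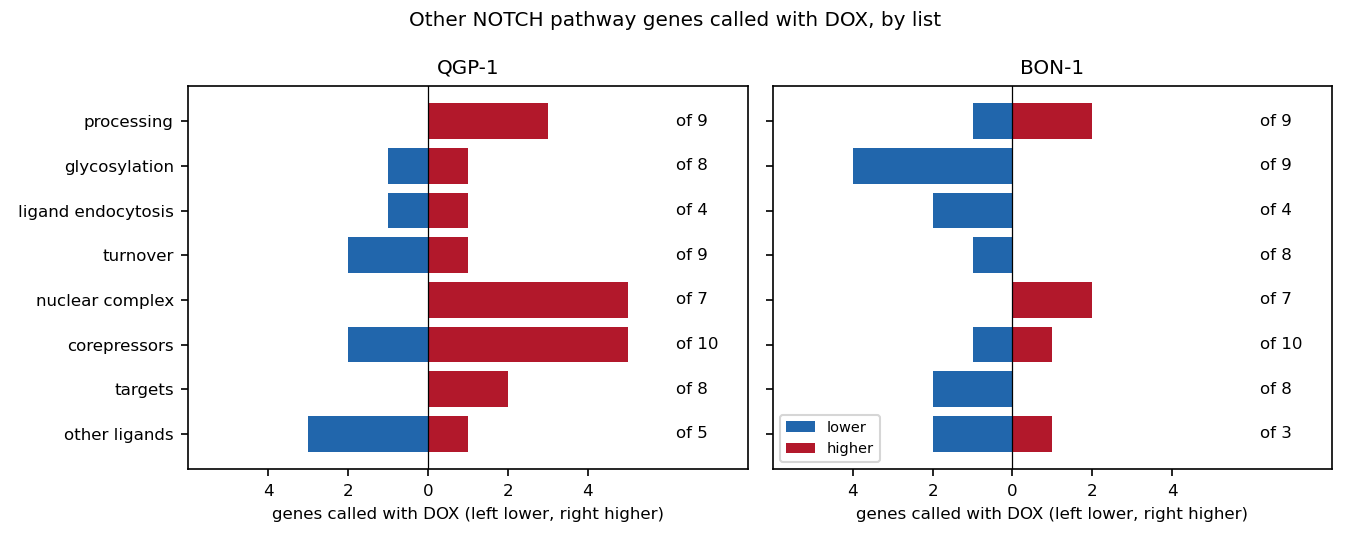
Number of pathway genes called higher (red, to the right) or lower (blue, to the left) with DOX in each line at an adjusted p below 0.05, with the number tested at the right. In the nuclear complex 5 of 7 genes were higher in QGP-1, beside 17.3% of all genes tested there. Of the glycosylation enzymes 4 of 9 were lower in BON-1, beside 18.3% of all genes tested there. The split between higher and lower genes differed with the scaling.

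The genes whose levels moved most like JAG1 over the 12 libraries, once the mean of each line was subtracted, were RAPGEF5, DUSP5 and AHR among 13534 genes compared, with Pearson's r of 0.992, 0.988 and 0.985. For NOTCH2 they were USP2 (0.960), FAM207A (0.952) and RAVER1 (0.949). All values of a library share its depth and scaling, and the DOX contrast of each line is part of these correlations, so they are given as a description only.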

How the data were processed

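RNA-seq covered the tet-MUC1shRNA derivatives of QGP-1 and BON-1, with 3 libraries a group. Libraries were stranded mRNA. The authors aligned the reads with STAR (GRCh38) and deposited, for each line, raw counts per gene without normalization and TPM values, that is, counts divided by a gene length and scaled to 1 total per library. The counter, its use of strand and the lengths are not given in the sources used here. Each column was tied to its library by the column name that the labels give, and 0 were left over. Depth was 15981954 to 50525926 counts per library. Floors of 3 counts cover counting error only. Replicates differed beyond sampling noise (chi-square per gene 5.92 to 29.7), so none was counted as a copy.

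The count test was the quasi-likelihood test of edgeR 4.0.16 under R 4.3.3 (filterByExpr, TMM, Benjamini-Hochberg, threshold 0.05), in each line alone and, for the lines and the interaction, in 1 fit of 4 groups. The SE is the size of the log2 fold change divided by the square root of F. Scripts were tested on simulated data. Alternatives used DESeq2 1.42.0, limma 3.58.1 on log2(TPM + 1) and log2(TPM + 0.1), other scalings, filters and single libraries left out. In a check on pairing, r for vehicle and DOX libraries of the same number was -0.0968, 0.164 and 0.115 in QGP-1. In BON-1 it was -0.073, -0.0424 and 0.109. For libraries of different numbers r was -0.341 to 0.228 in QGP-1 and -0.126 to 0.153 in BON-1. No pairing by number was seen, but 3 libraries a group cannot exclude it, and a fit with the replicate number as a block is given as an alternative. Named genes were all members, MUC1, NOTCH2NL, the 2 genes with the smallest adjusted p of each pathway list in each line, and the 3 genes most correlated with NOTCH2 and with JAG1. Genes named with no values, and FURIN, MFAP2 in QGP-1 and single marker genes, were named after their values were seen. The members and lists were chosen with earlier results of these data known. A planned exact test between neighbors in the order of levels was not used, as both genes come from the same libraries. The GC box and TATA box were searched after the first motifs gave no match. Sequences came from RefSeq (GRCh38.p14) and positions from GENCODE v44.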

Additional observations from a re-analysis of the deposited data

Results flagged for a closer look

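The response to DOX differed between the lines, by the interaction of line and DOX in edgeR (log2, BON-1 minus QGP-1), for 4 members. JAG1 differed by 0.75 ± 0.10 (adjusted p = 1.50e-05), JAG2 by -0.63 ± 0.14 (0.00274), DLL3 by -1.22 ± 0.17 (2.35e-05) and DLL4 by -1.38 ± 0.17 (3.63e-06). These 4 held in all 12 fits that left out a library. For DLL4 the rise was in QGP-1 (1.57) with 0.18 in BON-1. JAG1 rose in both lines with the larger rise in BON-1 (0.93 against 0.19). Its call in QGP-1 was kept in only 2 of the 6 fits that left out a library (adjusted p up to 0.144).

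Of the 61 other pathway genes tested, 12 differed in the same test, 4 higher and 8 lower, beside 8.80% and 7.92% of all genes. Values above 0, that is a response higher in BON-1, were found for CNTN1 (1.45, adjusted p = 2.33e-07), NCSTN (0.54, 0.00110), APH1B (0.36, 0.0394) and RBPJ (0.33, 0.0303). Values below 0 were found for DTX1 (-2.31, 0.0106), TLE2 (-1.51, 0.000475), HES6 (-0.92, 0.0169), XXYLT1 (-0.64, 0.00939), GXYLT1 (-0.59, 0.00111), KDM5A (-0.45, 0.00558), SPEN (-0.45, 0.00760) and ADAM10 (-0.34, 0.0287). Of the 12 fits that left out a library, APH1B was called in 2, RBPJ in 5 and ADAM10 in 8, with adjusted p up to 0.155, 0.0995 and 0.0848. Groups of 3 libraries are too small for a check of single outlying libraries.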

How the results depend on the processing

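Of the values of members under alternatives other than a left-out library, 214 of 238 kept direction and side of the threshold. With both lines in 1 edgeR fit, MIB1, DTX1 and HEY1 in QGP-1 also lost their calls (adjusted p = 0.0885, 0.0879 and 0.108). Asking for a log2 fold change above 1 left 1 member in QGP-1, 1 in BON-1, 3 between the lines and 2 in the interaction, and 1, 4 and 3 other pathway genes with DOX in QGP-1, in BON-1 and in the interaction. With limma on TPM the members called were 2 in BON-1 (pseudocount 1), and 5 in QGP-1 and 1 in BON-1 (pseudocount 0.1), and the other pathway genes called were 44 and 49 in QGP-1, all higher, and 0 and 3 in BON-1, against 28 and 19. Beside that count of 0 in limma, 8 of 52 genes had an unadjusted p under 0.05, and DESeq2 called 20. TPM was not used for the interaction. The share of all genes called is given only for the main fits. Counts under these alternatives, and in the fits below, are therefore a description and not to be read against those shares. TPM moved the median of all genes by 0.59 and 0.68 in QGP-1 and by -0.31 and -0.36 in BON-1. Relative to that median all 38 and 49 values kept their direction, which is largely built in, as TPM is made from the same counts. Against 0, these turned sign: in QGP-1 NOTCH2 (0.37), NOTCH3 (0.067), JAG2 (0.45 and 0.54), EOGT (0.24 and 0.33), NEURL1B (0.11 and 0.17), DTX1 (0.11) and CNTN1 (0.16 and 0.18), and in BON-1 DLL4 (-0.18 and -0.19), DTX3 (-0.12 and -0.13), MAML3 (-0.061 and -0.069) and RBPJ (-0.11 and -0.12).

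Leaving out 1 library gave 1 to 3 members in QGP-1, 3 to 5 in BON-1, 5 to 8 between the lines and 4 to 5 in the interaction, and 19 to 24, 15 to 22 and 10 to 16 other pathway genes. Without DOX replicate 1 or vehicle replicate 2 of QGP-1 DLL4 alone was called, and without vehicle replicate 1 of BON-1 JAG1, JAG2 and DLL3. Between the lines 5 were called without QGP-1 vehicle replicate 3 or BON-1 vehicle replicate 1, and DLK1 passed the filter and was called in 4 fits without BON-1 vehicle replicate 3 or any single BON-1 DOX library. Signs turned within these ranges: NOTCH4 in QGP-1 (-0.18 to 0.11), between the lines (-0.77 to 0.048) and in the interaction (-1.18 to 0.45), NOTCH3 in BON-1 (-0.31 to 0.36), JAG2 between the lines (-0.032 to 0.075), and in the interaction NOTCH1 (-0.041 to 0.56) and MUC1 (-0.28 to 0.38).

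With the replicate number as a block, members called were 3 in QGP-1, 5 in BON-1 and 4 in the interaction, as without it, although NOTCH3 in BON-1 was at -0.039 and HEY1 in QGP-1 lost its call (adjusted p = 0.0501), as did RBPJ in the interaction (0.0506). The block within a line cannot be estimated beside the contrast of the lines. By CPM per kilobase of exon, DLL4 and DLL1 changed places in QGP-1 with vehicle (ranks 5 and 4), as did NOTCH2 and NOTCH3 (ranks 7 and 6). Depth limits NOTCH4, DLK1 and NOTCH2NL, and NOTCH3 in BON-1.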
